A study of Mus musculus with 4 samples.

Results

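The mouse genes whose symbols begin with Zfp (zinc finger protein) were followed through lists of RNA sequence variants from 2 untreated cancer cell lines, MBT2 and LM8. Members were chosen by the annotated gene symbol alone, whatever the type of variant. They made up 69 of the 5445 variants listed for LM8 (1.27%, exact Clopper-Pearson 95% interval 0.987 to 1.60) and 86 of the 6361 listed for MBT2 (1.35%, 1.08 to 1.67). These lay in 51 of 3495 and 53 of 3933 genes, and over both lists there were 138 distinct Zfp variants in 81 genes. Of these genes, 79 are among the 397 protein-coding Zfp genes of the GENCODE M21 annotation. A caller that starts from RNA sees only genes with reads, so a Zfp gene without a variant may be unchanged or simply unread.

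MBT2 is a bladder cancer line and LM8 an osteosarcoma line, and both are labelled as syngeneic with C3H/HeN mice. RNA was taken in duplicate from each line without treatment, giving 4 libraries. MBT2 grew in RPMI-1640 medium and LM8 in MEM with 24 mM HEPES, each with 10% serum and antibiotics. The MBT2 titles carry the number 63 and the descriptions the marks P+22 (MBT2) and P+7 (LM8), whose meaning the labels do not state. Both libraries of a line share such a mark, and nothing says that they came from separate cultures, so tests between them measure a spread that may be technical. The lists cannot verify the tissue of origin: variants lay in 0 of 16 epithelial and urothelial marker genes in either line, and in 3 of 12 osteoblast marker genes in LM8 (Col1a1, Col1a2 and Runx2) and 0 of 12 in MBT2. Blood and endothelial markers held variants in 0 of 9 genes in either line. A variant list gives no expression level.

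Most Zfp proteins carry C2H2 zinc fingers, short folds in which a pair of cysteines and a pair of histidines hold a zinc ion and the residues between them touch DNA bases. Many also carry a KRAB domain, which recruits the corepressor Trim28 and silencing of chromatin, and the family is known for repressing transposable elements and guarding imprinted genes. Some genes that share the prefix work otherwise, among them the mRNA decay factors Zfp36l1 and Zfp36l2 and the ubiquitin ligases Zfp91 and Zfp598.

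The sequences behind the missense changes with the highest shares of reads, and behind those at a zinc-holding cysteine, are shown first, because the account of the coding changes turns on them. Each is 21 bases of the RNA-sense strand from the GENCODE M21 transcript, reference and then alternative, with the changed base in capitals. Positions are on GRCm39, as in the lists.
Zfp948 H195R reference: catggtggccAtttcagctct
Zfp948 H195R alternative: catggtggccGtttcagctct
Zfp568 C222F reference: aaacacacatGccccactctt
Zfp568 C222F alternative: aaacacacatTccccactctt
Zfp771 Y147H reference: agagaagccgTacgcatgcgc
Zfp771 Y147H alternative: agagaagccgCacgcatgcgc
Zfp655 C413F reference: ccctactcatGtaacgaatgt
Zfp655 C413F alternative: ccctactcatTtaacgaatgt
Zfp12 C461S reference: gccctacgagTgtgcggagtg
Zfp12 C461S alternative: gccctacgagAgtgcggagtg
Zfp771 C233S reference: gccgcaccgcTgcgccgtgtg
Zfp771 C233S alternative: gccgcaccgcAgcgccgtgtg

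The second set shows the stretches of coding sequence in which 1 extra base was listed. The run of adenines that holds the extra base is in capitals, on the RNA-sense strand and without the insertion.
Zfp148 at 33277302: gagagacAAAAAAcaagtca
Zfp148 at 33316175: tcacgacAAAAAActaaaca
Zfp148 at 33316281: aaaaggcAAAAAActgagaa
Zfp148 at 33316505: ggttctcAAAAAAAtcaatag
Zfp292 at 34805044: tcagtctAAAAAAActtgaag
Zfp451 at 33815853: gtgtcagAAAAAActaaaac
Zfp568 at 29721706: agatggcAAAAAAAcacacat
Zfp800 at 28243555: ggccagcAAAAAAccaggaa
Zfp91 at 12747801: ctgtggcAAAAAAtttgaga

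The values used throughout are read counts per allele, and the alternative-allele percent is the alternative reads over reference plus alternative reads. Over Zfp sites the LM8 libraries had median depths of 45.0 and 55.0 reads and the MBT2 libraries 56.0 and 59.5, against 61.0 to 73.0 over all sites of the 4 libraries. Summed over the libraries of a line, the shallowest Zfp site held 14 reads (LM8) or 15 (MBT2), and the deepest held 669 (LM8) or 1444 (MBT2). Intervals are exact Clopper-Pearson 95% intervals on the summed reads. Copies made by PCR are counted as separate reads, so these intervals describe counting error only.

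By type, Zfp variants were mostly single-base substitutions, 36 in LM8 (52.2%) and 48 in MBT2 (55.8%), beside 51.5% and 49.8% of all variants. Deletions of 21 or more bases, called long here, numbered 18 (26.1%, interval 16.3 to 38.1) and 17 (19.8%, 12 to 29.8), beside 30% and 31.8% of all variants. Insertions of 1 base numbered 9 and 16 (13% and 18.6%, against 11.7% and 12.1%). The remainder were 5 and 2 longer insertions and 1 and 3 short deletions. The MBT2 long-deletion interval lay below the share over all MBT2 variants, and the other intervals of the Zfp shares held the share over all variants of the same line.

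**Figure D1:**
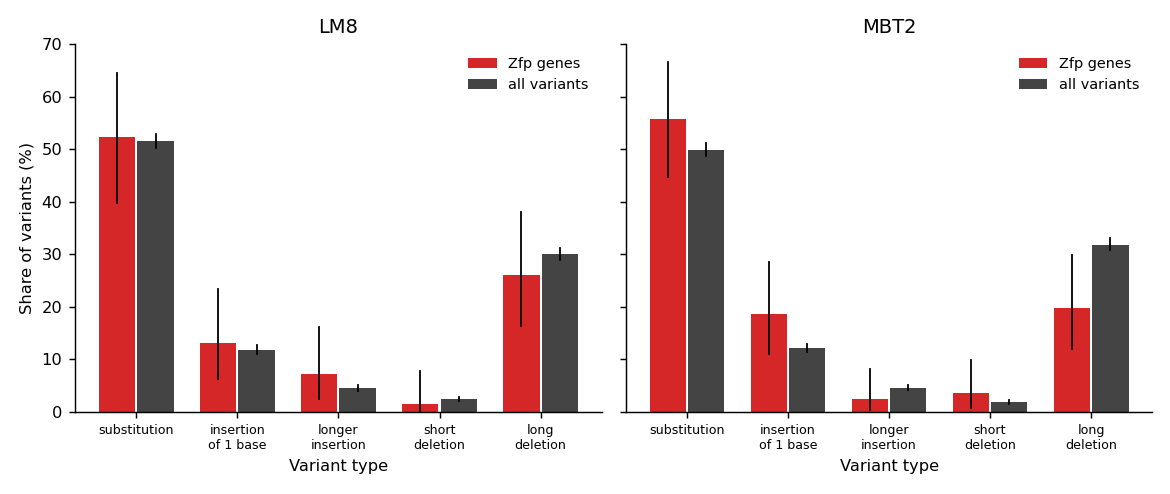
Share of variants (vertical axis, percent) by type (horizontal axis) for Zfp genes (red) and all variants (grey) in LM8 and MBT2. Lines are exact 95% intervals. Substitutions lead in both lines, and Zfp long deletions in MBT2 (19.8%) lie under the 31.8% of all variants.

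By annotated place, 21 LM8 and 28 MBT2 Zfp variants lay in the 3′ UTR (30.4% and 32.6%, against 25.7% and 25.4% of all variants). Protein-altering annotations (missense, stop, frameshift, in-frame and splice site) numbered 25 and 32, or 36.2% and 37.2%, near the 35.6% and 38% of all variants. All 8 and 9 splice site annotations were long deletions. Without long deletions 14 Zfp variants in LM8 and 21 in MBT2 altered a protein (20.3% and 24.4%, against 18% and 19.1%), 8 and 11 of them missense.

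Most Zfp genes carried little. In LM8, 39 of the 51 genes had 1 variant and 10 had 2, and in MBT2, 36 of 53 had 1 and 11 had 2. Zfp335, a cofactor of histone methyltransferase complexes, led both lists with 7 and 9 variants. Zfp512b followed in LM8 with 3, and Zfp148 and Zfp568 followed in MBT2 with 5 each, ahead of Zfp142, Zfp451 and Zfp664 with 3 each. By chromosome, 13 of the 81 genes (16%) lay on chromosome 17 and 10 (12.3%) on chromosome 7, which hold 11.6% and 23.2% of the annotated protein-coding Zfp genes. In all, 23 genes had variants in both lines, but 12 of these shared no variant between the lists.

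No Zfp site was called different between the duplicate libraries of a line. Fisher's exact test per site (two-sided, Benjamini-Hochberg adjustment over all sites of a list) called 0 of 69 sites in LM8 and 0 of 86 in MBT2, and the background over all sites was 0% in both lines. At an unadjusted p under 0.05 the LM8 list had 2 sites (2.90%, against 3.89% of all sites) and the MBT2 list 3 (3.49%, against 3.76%). The lowest unadjusted p, 0.00765, was that of a 99-base deletion in Zfp653 in MBT2, at 65.4% and 92.7% in the pair of libraries. Even this gap was not called after adjustment over 6361 sites, so the lack of calls does not show that duplicates were alike. One library held no alternative read at 8 LM8 and 6 MBT2 sites (11.6% and 6.98%, against 7.82% and 5.77% of all sites).

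**Figure D2:**
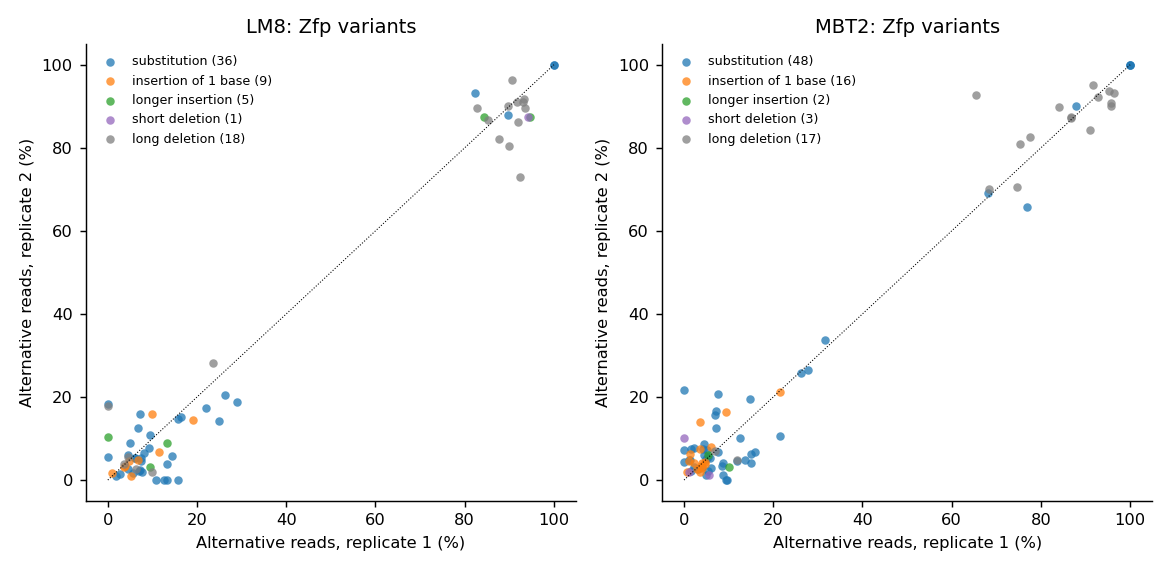
Alternative-allele percent of each Zfp variant in replicate 1 (horizontal) and replicate 2 (vertical) of LM8 (left, 69 variants) and MBT2 (right, 86), coloured by type, with the line of equality dotted. Points gather near the bottom left and near the top right, and the space between 40% and 60% holds no Zfp substitution in either line.

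Substitutions in Zfp genes stood mostly at low shares of reads. The median was 7.23% in LM8 (range 1.48% to 100%) and 6.43% in MBT2 (1.96% to 100%), beside 5.88% and 6.25% for all substitutions. Under 10% lay 24 of 36 and 29 of 48 (66.7% and 60.4%, against 72.1% and 65.6% of all). At 60% or more lay 4 and 6 (11.1% and 12.5%, against 7.39% and 11.1%). Between 40% and 60% there were 0 in either line, where all substitutions numbered 1 and 3.

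All 19 Zfp missense changes, in 18 genes, were listed in 1 line and not in the other, as were 94.8% of all LM8 and 95.6% of all MBT2 missense changes. In MBT2, 4 of 11 stood at 20% or more (36.4%, against 28.9% of all), and in LM8, 1 of 8 (12.5%, against 8.96% of all). Over all genes, too, the MBT2 list held the larger share of such changes. A site absent from a list was not necessarily read in that line, so this is a count of listed changes and not a test of absence.

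The highest was H195R in Zfp948 (chr17:21807393, exon 6), with 29 of 33 reads and 36 of 40 reads in the MBT2 libraries, or 87.9% and 90.0% (89.0% summed, interval 79.5 to 95.1). The reference histidine was left in 4 reads of each library.
C222F in Zfp568 (chr7:29721721, exon 10), a KRAB repressor known for silencing a placental Igf2 transcript, stood at 76.8% and 65.8% in MBT2 (71.6%, 63.8 to 78.6). The difference between the libraries had an unadjusted exact p of 0.154.
Y147H in Zfp771 (chr7:126853274, exon 3) stood at 68.1% and 69.0% in MBT2, on 303 reads in all (68.6%, 63.1 to 73.8). This was the deepest of the high missense sites and its libraries lay closest together.
C413F in Zfp655 (chr5:145181381, exon 4) stood at 27.7% and 26.4% in MBT2, on 137 reads (27.0%, 19.8 to 35.3). Its interval does not reach those of the other 3 high changes.

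In LM8 the highest missense share was F388L in Zfp995 (chr17:22099069), at 25% and 14.3% on 49 reads (20.4%, 10.2 to 34.3). S632C in Zfp598 (chr17:24899106), the ligase that marks collided ribosomes, stood at 22.0% and 17.3% on 326 reads (19.6%, 15.5 to 24.4). T411A in Zfp687 stood at 7.32% and 16% (12.1%), and R559G in Zfp266 at 9.43% and 10.9% (10.2%). The 4 lay below the 68.6% to 89.0% of the top 3 MBT2 changes.
The other 11 missense changes stood below 10%. In LM8 they were V175G in Zfp609 (9.09%), A42G in Zfp444 (5.66%), C461S in Zfp12 (3.57%) and A96T in Zfp280d (3.30%). In MBT2 they were P418L in Zfp654 (7.14%), R1034G in Zfp106 (6.47%), S635I in Zfp334 (5.45%), G201S in Zfp57 (4.88%), R314T in Zfp777 (3.60%), C233S in Zfp771 (3.03%) and C719Y in Zfp280c (2.13%). Zfp57 is known for keeping methylation at imprinted genes. These rest on 2 to 11 alternative reads each, and in 2 of them, A96T and C719Y, replicate 1 had none.

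**Figure D3:**
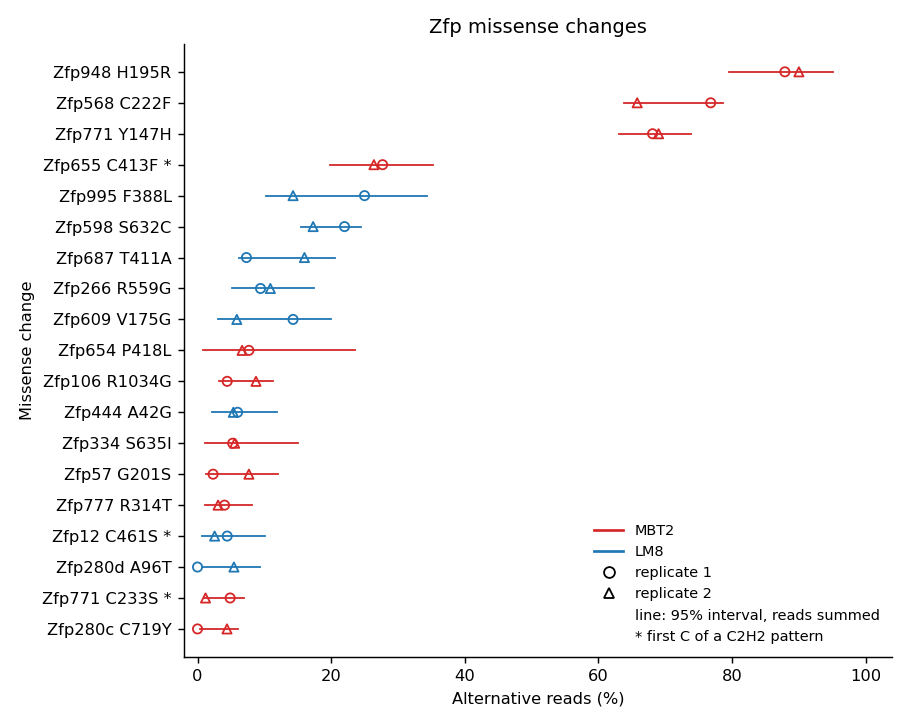
Alternative-allele percent (horizontal) of the 19 Zfp missense changes (vertical) in replicate 1 (circles) and replicate 2 (triangles) of MBT2 (red) or LM8 (blue), with the exact 95% interval of the summed reads as a line. An asterisk marks the first cysteine of a C2H2 pattern. The top 4 are MBT2 changes between 27.0% and 89.0%.

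Placed in the proteins, 6 of the 19 missense changes fell inside a C2H2 pattern, searched for in translated GENCODE M21 transcripts as 2 cysteines 2 to 4 residues apart, 12 residues, and 2 histidines 3 to 5 residues apart. In the 18 proteins, 20% of residues lie in such patterns. At 1 of the 4 zinc-holding residues lay 3 of the 19, where 3.76% of residues of those proteins do. All 3 were the first cysteine of a pattern: C413F in the fifth of 6 patterns of Zfp655, C461S in the eighth of 15 of Zfp12, and C233S in the seventh of 8 of Zfp771. C413F had the highest share of the 3, at 27.0%, while C461S and C233S rested on 3 and 5 alternative reads.
The 3 others inside a pattern, R559G in Zfp266, S635I in Zfp334 and F388L in Zfp995, lay between the zinc-holding residues. The most frequent changes lay outside the pattern as searched, which runs from its first cysteine to its last histidine. Y147H in Zfp771 was 2 residues before the first cysteine of 1, and whether it belongs to that finger was not tested. H195R in Zfp948 and C222F in Zfp568 were in no pattern, C222F 143 residues from the nearest. So the cysteine lost in Zfp568 and the histidine lost in Zfp948 are not zinc-holding residues of a complete pattern as searched.
Changes from cysteine made up 4 of 11 Zfp missense changes in MBT2 (36.4%) and 1 of 8 in LM8 (12.5%), beside 2.78% and 2.67% of all missense changes. Cysteine is 3.95% of the residues of the 18 proteins. These are counts of 4 and 1 and were given no test.

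Frameshift and in-frame changes in Zfp genes were few and mostly low. Apart from long deletions, LM8 had 4 frameshifts, 1 in-frame insertion and 1 stop gained through a longer insertion, and MBT2 had 10 frameshifts.
The in-frame change was 3 added bases in Zfp335 (chr2:164749388, exon 6, D310ED), with 18 of 19 and 14 of 16 reads in the LM8 libraries (94.7% and 87.5%; 91.4%, 76.9 to 98.2). It lengthens a repeat of a 3-base unit from 5 to 6 copies and was not listed in MBT2.
A longer insertion of 42 bases in Zfp260 (6.25%) was annotated as a stop gained in LM8, and 1 of 64 bases in Zfp142 (5.75%) as a frameshift in MBT2. The whole inserted sequence of each was found in transcripts of the same gene and of no other. The same held for 51 bases in the 5′ UTR of Zfp251 (5.88%, LM8), but not for 46 bases in Zfp131 (10.9%, LM8). 
Short deletions shifted the frame in MBT2 in Zfp598 (1.46% of 549 reads), 84 bases from the LM8 change S632C, and in Zfp644 (3.31% of 151 reads).

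All 1-base coding insertions lay in the adenine runs shown above: 9 distinct insertions in 6 genes. Across all places, the added base was A on the RNA-sense strand in 8 of 9 LM8 and 13 of 16 MBT2 Zfp insertions (88.9% and 81.2%, against 74.6% and 75.9% of all 1-base insertions). The runs were 5 to 7 bases long, and the median percents, 4.69% and 3.86%, lay near those of all 1-base insertions, 4.16% and 4.03%.
Zfp148, which binds GC-rich promoters, carried 4 of the 9. At chr16:33316281 the extra base was in 19.0% and 14.5% of LM8 reads and 21.5% and 21.1% of MBT2 reads, the highest share of any Zfp 1-base insertion in each line. At chr16:33316175 LM8 libraries stood at 6.85% and 4.76% and MBT2 libraries at 2.14% and 4.13%. The insertions at 33277302 and 33316505 were listed in MBT2 only, at 3.70% and 3.50%. All 4 runs have 6 or 7 adenines, and the share of reads varied from 3.07% to 21.2% in MBT2 between runs of like length in 1 gene.
In Zfp568 the extra base at chr7:29721706 was in 12.8% of 148 MBT2 reads, 15 bases before the position of C222F at 71.6%. The other coding runs stood at 9.76% in Zfp292 and 4.69% in Zfp451 in LM8, and at 8.49% in Zfp800 and 2.76% in Zfp91 in MBT2. Whether the extra bases were in the cells' DNA, in RNA, or arose in library preparation or sequencing was not tested.

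Outside protein-altering positions, 4 LM8 substitutions stood at 87.5% or more and 3 MBT2 substitutions at 100%. Each was high in both libraries.
In LM8, Zfp276 (5′ UTR, chr8:123981129) and Zfp94 (3′ UTR, chr7:24001686) had no reference read among 14 and 15 reads. Zfp839 (intron, chr12:110825288) stood at 89.7% and 88.0%, and Zfp955a (3′ UTR, chr17:33460351) at 82.4% and 93.3%. A 1-base deletion in the 3′ UTR of Zfp871 (chr17:32992507) stood at 94.1% and 87.5%.
In MBT2, Zfp111 (downstream, chr7:23893163), Zfp189 (synonymous E547, chr4:49530539) and Zfp942 (upstream, chr17:22185238) had no reference read among 15 reads each. For the 5 sites without a reference read, the lower bounds of the intervals were 76.8% to 78.2%.
The lists also carry a population frequency of the alternative allele, as its negative log10, and at most sites this field holds the same value, 2.02. Another value stood at 3 LM8 and 2 MBT2 Zfp sites (4.35% and 2.33%, against 3.01% and 2.80% of all sites). Among the high sites these were Zfp839 (0.519), Zfp871 (0.602) and Zfp942 (1.72), and the other 2 were Zfp1 (1.72) and Zfp955b (1.17). A lower value stands for a more common allele, and its part in these shares was not tested.
An intermediate group lay between 20% and 40%. In LM8 it held Zfp91 (3′ UTR, chr19:12747088, 26.2% and 20.4%) and Zfp131 (synonymous E546, chr13:120228110, 28.9% and 18.9%). In MBT2 it held Zfp106 (synonymous L1840, chr2:120341058, 31.6% and 33.8% on 609 reads) and Zfp365 (3′ UTR, chr10:67723095, 26.2% and 25.8% on 277 reads). The paired libraries lay closest in the MBT2 genes, and the unadjusted exact p for the wider gap, in Zfp131, was 0.0549.

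Below these, the 3′ UTRs held most of the remaining substitutions: 16 of 19 in LM8 and 23 of 24 in MBT2 stood under 20%. Genes with several variants held them in different places.
In MBT2, Zfp451, a SUMO ligase, had 3 such changes at 17.1%, 11% and 2.78%, the latter pair with reads of both strands. Zfp664 had a 3′ UTR change at 3.11% and an insertion at 4.26% beside its shared 5′ UTR change. Zfp142 had the synonymous A680 at 11.1% and a downstream change at 11.5%, each on 36 reads or fewer. Zfp568 had, beside its coding pair, the synonymous R334 at 3.33% and 2 downstream insertions at 3.60% and 2.68%. Of the 5 variants of Zfp568 only C222F exceeded 12.8%.
In LM8, Zfp512b had a 3′ UTR change at 4.55% and long deletions of 101 and 93 bases at 91.4% and 25.7%. The 3 members with 5′ UTR substitutions were Zfp276 at 100%, Zfp622 at 5.30% and Zfp664 at 1.48%, so the reads spanned the whole range within 1 class of site.
Zfpm2, a cofactor of GATA factors, carried 1 low 3′ UTR change in MBT2 (5.36%), as did Zfp281 (5.88%), a pluripotency factor, and Zfp445 (9.09%), known for imprinting. All of these rest on 3 to 6 alternative reads.

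Near-identical copies touch some of these values. Among 68 coding and 3′ UTR substitutions located in transcripts, the 31 bases around the reference base also occur in another gene at 3: Zfp955a (in Zfp955b), Zfp995 (in AC154707.1) and Zfp617 (in Gm18180). At 1 site, a G-to-T change in the 3′ UTR of Zfp955b in MBT2 (13.2%), the alternative sequence is that of Zfp955a. Reads of such copies can be placed on either gene, so the shares at these 4 genes are uncertain.

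By base change on the strand of the gene, Zfp substitutions were led by G-to-A in LM8 (11 of 36, 30.6%, against 26.9% of all) and by A-to-G in MBT2 (12 of 48, 25%, against 21.5%). A-to-G is the change that RNA editing by adenosine deaminases leaves in reads. It made up 4 of 36 in LM8 (11.1%, interval 3.11 to 26.1, against 17.7% of all), so the Zfp shares of both lines hold the overall share within their intervals.
C-to-G was 6 of 36 in LM8 (16.7%, 6.37 to 32.8), beside 2.2% of all LM8 substitutions and 1 of 48 in MBT2. The 6 were the changes in Zfp94, Zfp598, Zfp266, Zfp622 (5′ UTR, 5.30%) and an adjacent pair in Zfp444 in the same reads (5.66% each), so they are 5 separate sites. G-to-T was 7 of 48 in MBT2 (14.6%, 6.07 to 27.8), beside 5.87% of all and 1 of 36 in LM8. Both G-to-T missense changes from cysteine, C222F and C413F, are among these. No test was made of either excess, which was noticed among 12 classes.

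The lists shared 17 Zfp variants, 24.6% of those of LM8 and 19.8% of those of MBT2, beside 23.2% and 19.8% for all variants. They were 9 long deletions, 5 insertions of 1 base and 3 substitutions. None altered a protein by substitution.
Fisher's exact test between lines on reads summed per line (two-sided, adjusted over all 1261 shared sites) called 0 of the 17, against a background of 7.30%. At an unadjusted p under 0.05 there was 1, against 13.6% of all shared sites. That was an 87-base deletion in Zfp513, a regulator known from the retina, at 90.5% and 96.4% in LM8 and 77.5% and 82.6% in MBT2. The LM8 libraries lay above those of MBT2 by 13.6 points on summed reads (93.9% against 80.2%, unadjusted p 0.00678, adjusted p 0.0822). By orientation, 52 LM8 reads there were on the strand of the gene and 1 on the other strand, against 43 and 11 in MBT2. The part of these opposite-strand reads in the gap was not tested. At 8 of the 17 sites the libraries of the lines did not overlap, as at 477 of the 1261 shared sites.
The 3 shared substitutions were low in both lines. Zfp36l1 (3′ UTR, chr12:80154689) stood at 5.84% in LM8 and 5.61% in MBT2, and Zfp664 (5′ UTR, chr5:124962600) at 1.48% and 1.96%. Zfp609 (3′ UTR, chr9:65599913) had alternative reads in replicate 1 of each line, 12.5% and 9.52%, and 0% in replicate 2 of each. The alternative reads were only 3 in LM8 and 4 in MBT2. Fisher's exact test between duplicates gave unadjusted p of 0.235 and 0.116.
Beside the Zfp148 pair, the shared insertions were in Zfp36l2 (3′ UTR, 3.65% and 4.02%), Zfp326 (2.90% and 4.47%) and Zfp207 (1.35% and 1.38%), a spindle assembly protein. The Zfp36l2 and Zfp207 sites are the deepest, read 521 times in LM8 and 1444 times in MBT2 for Zfp36l2 and 669 and 650 times for Zfp207, and the shares of the lines differed by 0.370 and 0.0393 points.

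**Figure D4:**
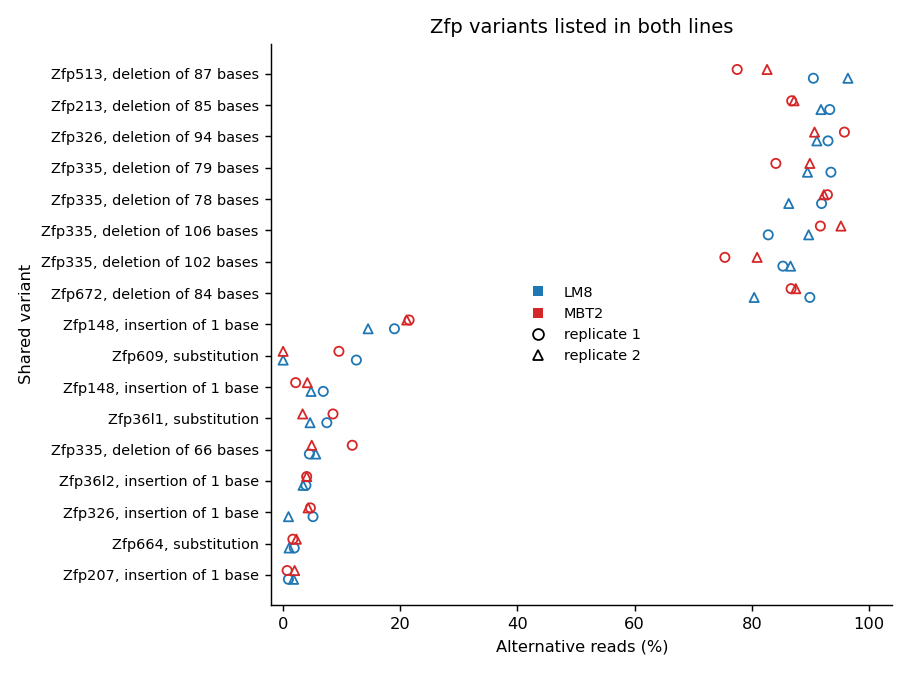
Alternative-allele percent (horizontal) of the 17 Zfp variants listed in both lines (vertical) in replicates 1 (circles) and 2 (triangles) of LM8 (blue) and MBT2 (red). Of the 9 long deletions, 8 lie above 75% in all 4 libraries and the 66-base deletion in Zfp335 lies below 12%; insertions and substitutions lie below 22%.

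Long deletions in Zfp genes had medians of 85.5% and 87.0% of reads. Their length equals that of an annotated intron of the same gene in 12 of 18 in LM8 and 12 of 17 in MBT2 (66.7% and 70.6%, against 65.3% and 64.8% of all long deletions). Where the orientation of reads gives the RNA strand, the deleted bases began with GT and ended with AG, the usual ends of an intron, in 16 of 17 and 14 of 14 (94.1% and 100%, against 93.4% and 93.9% of all long deletions), and on the opposite strand in 0. Whether the missing bases were spliced from RNA or lost from DNA was not tested.
Zfp335 held 6 of the LM8 and 9 of the MBT2 long deletions. The deletions of 78, 79 and 106 bases, each of the length of one of its introns, stood between 86.2% and 93.6% in the lines (the plot of Zfp335 variants). An 80-base deletion in MBT2 stood at 69.3% of 231 reads and an overlapping 66-base deletion at 8.0% of 75 reads (5.04% in LM8). The 75 reads are fewer than the 160 with the 80-base form, so the shares rest on different totals and are not like for like. Both begin at the same base of the RNA and end at different ones, shown here by their first and last 14 bases with the terminal pairs in capitals.
Zfp335 start of both: GTaggccaggcctg
Zfp335 end of 80: cttcctatctctAG
Zfp335 end of 66: ggatcactggacAG
The 80-base length is that of an annotated Zfp335 intron, and also of an intron of the neighbour Pltp. The 66-base length is that of neither. In LM8 the 66-base form was listed (139 reads) and the 80-base form was not, which does not show that it was absent. The phase field of that LM8 record names position 164734524, where the 80-base deletion of MBT2 lies. Reads at the 66-base deletion were of both strands in each line.

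**Figure D5:**
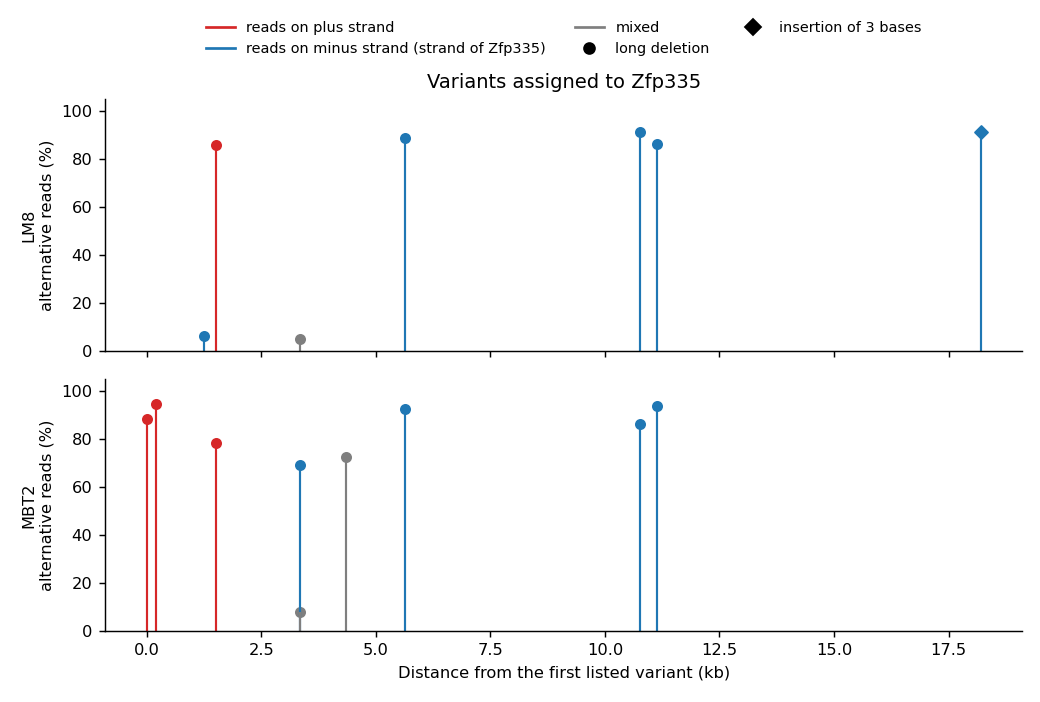
Alternative-allele percent (vertical) of the variants assigned to Zfp335 in LM8 (7, top) and MBT2 (9, bottom) against distance from the first listed variant (kb). Circles are long deletions and the diamond is the in-frame insertion; blue marks reads on the strand of Zfp335, red the plus strand and grey a mixture. The 3 downstream deletions with reads on the plus strand lie within the first 2.5 kb.

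Several variants that carry a Zfp name came from reads on the opposite strand. Within genes, 93.0% of LM8 and 91.2% of MBT2 Zfp records had reads on the strand of the gene (95.5% and 95.9% of all), and upstream or downstream of genes 75% and 66.7% did (68.6% and 68.5% of all). Reads on the opposite strand were at 2 LM8 and 1 MBT2 records within genes (3.51% and 1.47%, against 3.26% and 2.49% of all). The other 2 and 5 records within genes had reads of both strands. Upstream or downstream, the opposite-strand shares were 25% and 33.3% (30.7% and 28.7% of all).
The Zfp335 deletions of 102, 119 and 81 bases, annotated as downstream, had reads on the plus strand, and their lengths equal introns of the neighbour Pcif1, which lies on that strand. The 84-base deletion named for Zfp672 (85.1% and 87.2%) had plus-strand reads and the length of an intron of its neighbour Zfp692. An adjacent pair of LM8 changes in an intron of Zfp385c (15.6% and 15.1%), 4 bases apart and in the same reads, had plus-strand reads, where the neighbour is Nkiras2. The Zfp740 3′ UTR change in MBT2 (4.26%) had 296 reads on the minus strand and 1 on the plus strand. An insertion of 2 bases downstream of Zfp710 (86.0%, LM8) and insertions near Zfp668 and Zfp422-ps (MBT2) were also on the opposite strand. Which transcripts these reads came from was not tested.
Other deep long deletions were in Zfpl1 (71 bases, 84.8% of 204 LM8 reads), a Golgi protein, and upstream of Zfp638 (108 bases, 3.73% of 483 LM8 reads), known for silencing retroviral DNA. The Zfp638 deletion matched no intron of the gene and had no GT and AG ends. An 85-base deletion in Zfp335 (72.5% of 233 MBT2 reads) and a 157-base deletion near it (6.19% of 226 LM8 reads) complete the deepest. Reads at the 85-base deletion were of both strands (122 minus and 34 plus), and its length equals an intron of Zfp335 and also an intron of Pcif1.

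Partners of the family were listed as well. Of 33 genes for KRAB corepressors and the silencing machinery, chosen with earlier results of these data known, 15 carried 24 variants in LM8 and 14 carried 30 in MBT2. Apart from long deletions, 7 of the 24 and 9 of the 30 altered a protein, beside 18% and 19.1% of all variants. The share of all genes that carried a variant was not computed, so these counts do not set the partners apart.
In LM8, N658K in Smarcad1, a chromatin remodeller, stood at 24.7%, and G293A and V335A in Ehmt2, a histone H3 lysine methyltransferase, at 19.4% and 10.6%. These were the highest LM8 shares among the protein-altering variants of the list other than long deletions. The others described here were 8.11% or lower: C1417Y in Dnmt1, S1448R and an insertion in Resf1, an insertion in Uhrf1 and 4 frameshifts in Atrx in MBT2, and insertions in Atrx, Chd3 and Hdac1 in LM8. Of 3 adenosine deaminase genes, 1 carried 1 variant, a long deletion in LM8. Genes of other zinc finger families carried 26 variants in 17 genes in LM8 and 30 in 19 genes in MBT2.
Among the 22 Zfp genes listed as lacking C2H2 fingers or known for another role, 10 in each line carried 11 and 15 variants. Apart from long deletions, 1 in LM8 (9.09%) and 3 in MBT2 (20%) altered a protein, beside 18% and 19.1% of all variants: S632C in Zfp598 in LM8, and R1034G in Zfp106, the short deletion in Zfp598 and the insertion in Zfp91 in MBT2.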

How the data were processed

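Poly(A) RNA of 4 libraries (2 each of LM8 and MBT2) was read as paired 75-base reads with a directional kit, per the labels' protocols. The authors deposited 1 variant list per line (VCF 4.2, GRCm39), called jointly on both libraries without a normal sample by Mutect 2.2 and filtered with GATK 4.1.5.0, per the file headers; the submitters' processing notes name GATK 4.3.0, STAR 2.7.9a, cutadapt 1.9.1 and bcl2fastq 2.17.1.14. Deposited values are whole-number reads supporting each allele in each library (unit class: other). One effect per record was annotated by SnpEff 5.1d with database 105, per the file headers. The handling of spliced reads ahead of variant calling: not given in the sources used here.

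Fractions, exact intervals (95%) and Fisher's exact tests were computed with scipy 1.17.1, adjusted over all sites at 0.05, after a test on simulated data. Smallest depth was 14 reads at Zfp sites. RNA strand came from the annotated gene, or from read orientation where at least 90% of pairs agreed. GENCODE M21, of an older build, gave strands, intron lengths, neighbours and transcript sequences, and no coordinates. Zfp members and gene lists were chosen with earlier results of these data known. Named were: all protein-altering Zfp variants other than long deletions (up to 30 per line), noncoding substitutions at 20% or more (up to 15), the 8 genes with most variants, shared substitutions and short insertions (up to 20), the 6 deepest long deletions, and protein-altering corepressor variants. Others were named after their values were seen. Alternatives were depth, type, strand, gene set, replicate and block. RefSeq proteins were not used here. One corepressor variant is not reported here.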

Additional observations from a re-analysis of the deposited data

How the results depend on the processing

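Of 66 alternative values for 12 results, 53 stayed within the limit set for each (counts within 1.5 times, shares within their interval, medians within 1 SD between libraries). Substitutions alone left 36 LM8 and 48 MBT2 Zfp variants, 8 and 11 protein-altering and 3 shared; without long deletions 14 and 21 protein-altering and 8 shared remained. These fell by construction. The MBT2 median percent of Zfp substitutions was 5.45 with at least 40 reads and 7.14 in genes with 2 or more C2H2 patterns in a translated GENCODE transcript (an alternative added after seeing the data, in place of RefSeq proteins, which was not run). Leaving out a replicate kept only sites with an alternative read in the other, and gave 7.07 to 9.37 in LM8 and 7.03 to 7.69 in MBT2. Dropping sites without such a read raised these medians by construction. With those sites kept, the libraries had medians of 5.97 and 8.65 in LM8 and 6.72 and 7.42 in MBT2. Other causes of the shifts were not tested. Leaving out a replicate also gave 65 LM8 and 82 to 84 MBT2 variants and 16 to 17 shared. Records with reads on the strand of the gene (added after seeing the data) numbered 62 and 74. With the replicate number as a block, the test between lines called 0 of 17 Zfp sites, the lowest adjusted p being 0.0751; over that test's alternatives it ranged from 0.0751 to 1. The deviations of same-numbered libraries had a correlation of -0.0222 over 1261 sites. No site was called different between duplicates, so these deviations may be counting error alone. The value therefore cannot tell whether same-numbered libraries were handled together. Sites of under 20 reads (2 and 3) have intervals over 20 points wide.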
